A study of Danio rerio with 8 samples.

Results

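The genes described are those of the major histocompatibility complex (MHC) and of the pathway that loads peptides onto its products. They were taken by symbol: every row whose name, without an added copy number, starts with mhc1, mhc2, psmb, tap1 or tap2, and b2m, b2ml, cd74a, cd74b, ciita, tapbp.1 and tapbp.2. This gave 66 of the 53709 rows of the count tables, for 63 symbols, of which psmb5, psmb11a and tap2t each had a second row (copy). No read was counted on 10 of the 66 rows, 16 more had counts but did not pass the low-count filter of the fit, and 40 passed it. They were measured by bulk RNA-seq in tcf21:nEGFP-positive cells, sorted as epicardial cells from heart ventricles of zebrafish aged 70 days that all carried the Tg(tcf21:nEGFP) reporter, a nuclear fluorescent protein under tcf21 regulatory sequence. The 4 libraries of the mutant group came from cxcr4aum20 fish, mutant in the chemokine receptor gene cxcr4a and labelled as having coronary loss, and the 4 control libraries from wild-type (WT) fish. The labels do not say whether a library is 1 fish or a pool, or whether the genotypes were siblings, so p-values measure only the spread between these libraries.

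MHC class I molecules display peptides from inside the cell and pair a heavy chain with beta-2-microglobulin. The peptides are cut by proteasomes, in which inducible beta subunits can replace the constitutive ones, and are carried into the endoplasmic reticulum by the TAP transporter, where tapasin helps to load them. MHC class II molecules, made of an alpha and a beta chain, display peptides from taken-up material. They are held by the invariant chain CD74 until loading, depend on the regulator CIITA, and are typical of macrophages, dendritic cells and B cells. In zebrafish the class I and class II genes lie on several chromosomes, and fish differ in which MHC genes and alleles they carry. Reads here were counted on 1 reference assembly, so a lower level and a diverged or absent allele cannot be told apart.

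Libraries held between 18891079 and 28471786 counts. The mutated gene, cxcr4a, had 86 to 447 counts in mutant and 12 to 219 in wild-type libraries, and such counts cannot verify the genotype, since transcripts of the mutant allele may be counted too. The 12 epicardial markers were all counted, with a summed level of 6477 to 7901 CPM (counts scaled to a common library size) in mutants and 6082 to 8264 CPM in wild type. The 31 leukocyte markers with a row summed to 154 to 1860 CPM in mutants against 691 to 1815 CPM in wild type, lowest in cxcr4a mutant 2. Of these, c1qa, cd37 and lck had no count, and 7 more, among them mpeg1.1, coro1a and tyrobp, stayed under 1 CPM in every library. Cardiomyocyte markers summed to 412 to 2149 CPM in mutants, highest in cxcr4a mutant 3, and to 335 to 652 CPM in wild type. Mural and fibroblast markers summed to 10669 CPM in cxcr4a mutant 2. They summed to 919 to 1651 CPM in the other mutants and to 611 to 5614 CPM in wild type. The part of these cell types in the results was not tested.

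One class II gene had lower counts in mutants and no other member passed the test. Of the 40 tested rows, 1 was called lower and none higher by edgeR's quasi-likelihood test at an adjusted p under 0.05. This test called 0.35% of all 18002 rows tested, 0.211% as lower. At an unadjusted p under 0.05 there were 3 higher and 4 lower, 17.5% of the members against 10.8% of all rows (5.93% higher and 4.91% lower). Libraries of the 2 genotypes did not overlap for 5 members, 12.5% against 8.39% of all rows. DESeq2 called 4 of 44 members (mhc1zja, mhc2bl, mhc2dgb and mhc2dhb), 9.09% against 4.26% of all rows, and limma voom called mhc2dhb alone, where it called 0.322% of all rows. With copies of a symbol summed, DESeq2 called those 4 again, against 2.13% of all symbols, and limma voom called none, as it did over all symbols (0%). The median log2 fold change of the members was -0.14, beside -0.0029 over all rows, and 27 of 40 lay within 0.5 of no change.

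**Figure D1:**
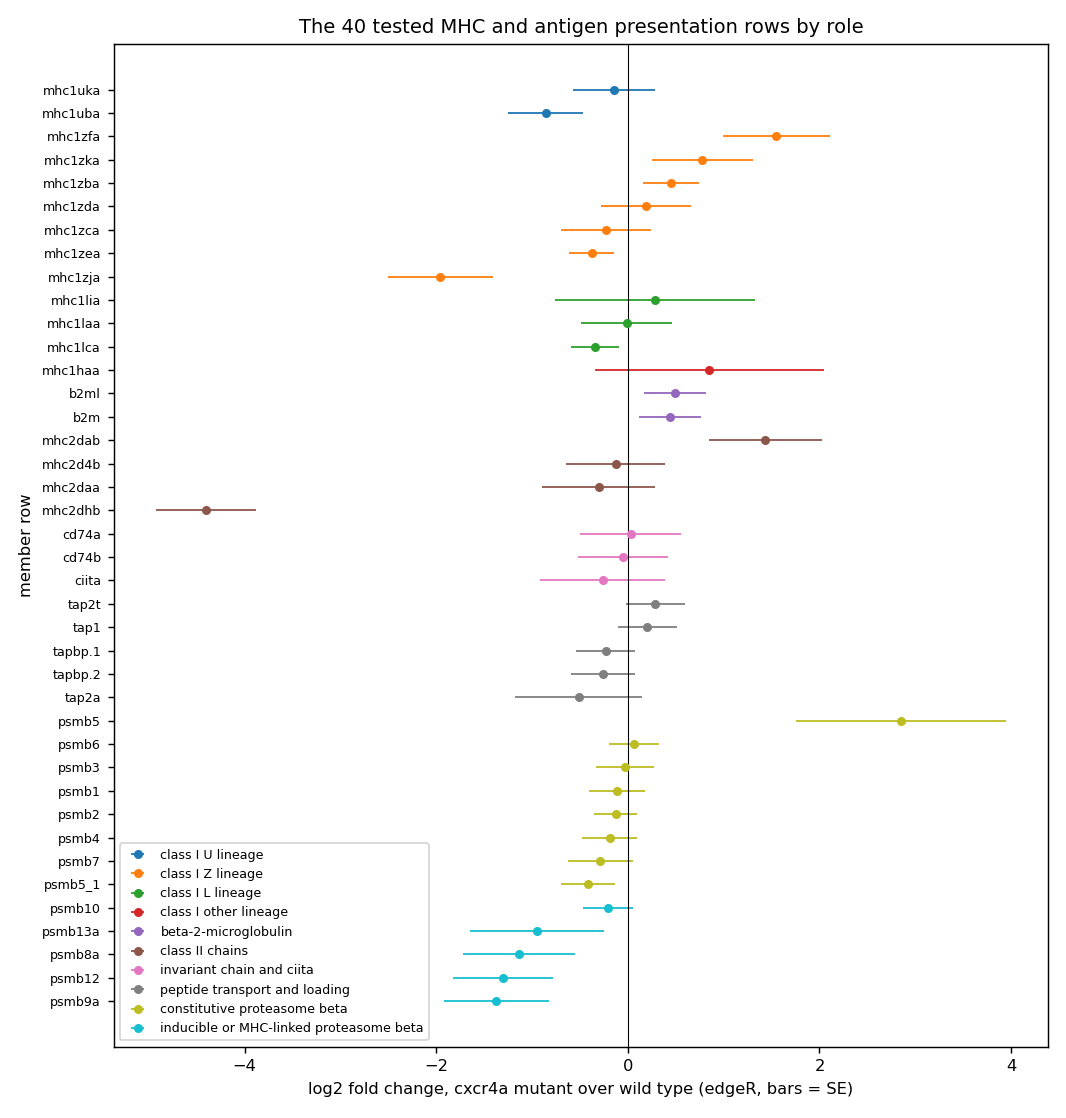
Log2 fold change of the 40 tested rows, cxcr4a mutant over wild type (x axis), with the standard error from edgeR as bars and rows grouped by role. mhc2dhb lies apart at -4.40, psmb5 at 2.85 has a wide error of 1.1, and the 5 inducible or MHC-linked proteasome rows lie below 0.

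The called gene was mhc2dhb, a class II beta chain gene. Its counts were 103, 14, 88 and 96 in mutants 1 to 4, against 1841, 1284, 2341 and 1065 in wild type 1 to 4. Every mutant library was thus far below every wild-type library, and none was at 0. Its level was 3.23 ± 1.75 CPM in mutants against 68.7 ± 21.0 CPM in wild type (SD, n = 4 per group), 21.3-fold lower by these means. The log2 fold change was -4.40 ± 0.52 (SE, edgeR adjusted p = 0.0123), and leaving out each library in turn gave -4.68 to -4.09, with the call kept in 8 of 8 fits. With copies summed over all symbols the value was -4.40 (edgeR adjusted p = 0.0258, where 0.0481% of all symbols were called), and there the call was lost in every fit that left out 1 library except the one without cxcr4a mutant 2.

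The alpha chain gene mhc2daa, the next protein-coding gene to mhc2dhb on chromosome 8 of the GRCz12tu assembly, did not pass. It stood at 416, 237, 976 and 1985 CPM in mutants 1 to 4 and at 1092, 604, 1623 and 1150.1 CPM in wild type 1 to 4. The groups overlapped, and the mutants alone spanned from the lowest to the highest of all 8 libraries (log2 fold change -0.31 ± 0.59, edgeR adjusted p = 0.910). A further beta chain gene, mhc2dab, is not listed by that symbol in RefSeq on GRCz12tu. It was at 75.6, 53.2, 213 and 389 CPM in mutants and at 80.6, 38.6, 93.3 and 57.5 CPM in wild type. Its groups overlapped as well, and the change of 1.44 ± 0.59 did not pass (edgeR adjusted p = 0.413). mhc2d4b, a class II gene on chromosome 4, was at 57.8 ± 43.6 CPM in mutants against 63.2 ± 14.4 CPM in wild type (edgeR adjusted p = 0.963).

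Set against mhc2daa in the same library, both beta chain genes separated the genotypes, in opposite directions. Counts on mhc2dab were 18.2%, 22.5%, 21.8% and 19.6% of those on mhc2daa in mutants 1 to 4, and 7.38%, 6.38%, 5.75% and 5.003% in wild type 1 to 4. Counts on mhc2dhb were 1.19%, 0.337%, 0.393% and 0.168% of those on mhc2daa in mutants, and 8.97%, 9.27%, 4.28% and 4.44% in wild type. These percentages compare libraries, not the levels of the genes, because they were not scaled by transcript length. The ratio to mhc2daa differed by 1.75 on the log2 scale for mhc2dab (SD 0.14 in mutants and 0.24 in wild type) and by -3.97 for mhc2dhb (SD 1.17 and 0.62). In each case an exact permutation test, 2-sided, gave p = 0.0286, the smallest possible with 4 against 4, and 0.137 after adjustment over the 24 ratios compared. The ratios were chosen after the values were seen, and neither passes that correction. The ratio of mhc2d4b to mhc2daa, at 5.81% to 8.63% in mutants and 5.04% to 7.80% in wild type, overlapped (exact permutation p = 0.343). Those of cd74a and cd74b to mhc2daa overlapped too, with means higher in mutants by 0.49 and 0.46 on the log2 scale (exact permutation p = 0.0571 and 0.0857). A part of the mhc2daa counts themselves in these ratios was not tested.

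**Figure D2:**
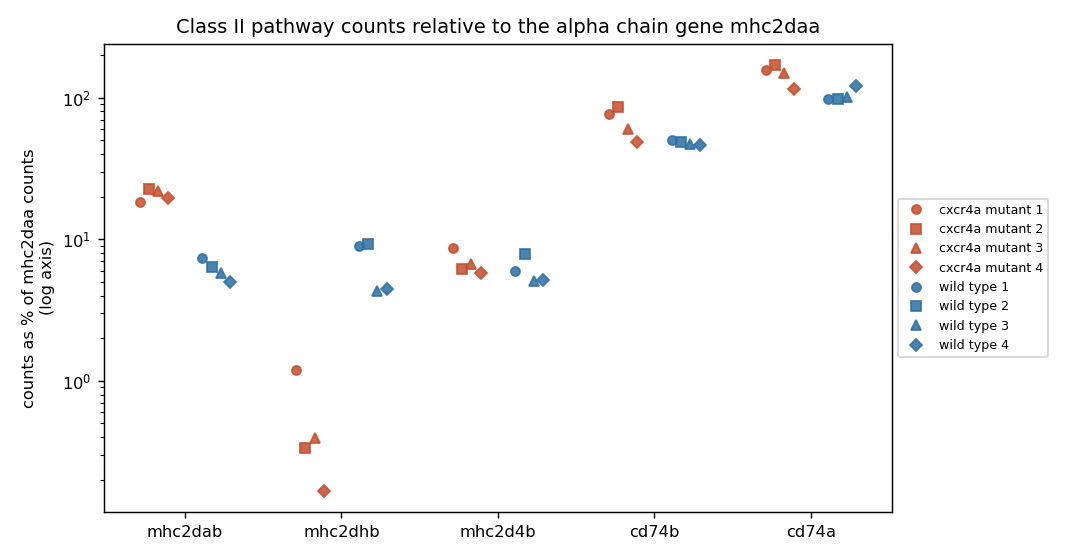
Counts of mhc2dab, mhc2dhb, mhc2d4b, cd74b and cd74a as a percentage of mhc2daa counts in the same library (log axis), with 1 symbol per library. All 4 mutants lie above wild type for mhc2dab and below for mhc2dhb, while the genotypes overlap for mhc2d4b, cd74b and cd74a.

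Class II genes counted in 1 genotype only were kept apart from these differences in counts. A row was placed here with at most 3 counts over 1 genotype and a count of 10 or more in at least 2 libraries of the other. This held for 2 of the 56 members with any count (3.57%), against 1.5% of all rows with a count, or 0.804% counted in wild type only. Both are neighbours of mhc2dhb on chromosome 8, where the protein-coding genes run mhc2dga, mhc2dgb, mhc2dhb and mhc2daa in the GRCz12tu order.

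The alpha chain gene mhc2dga had 285 and 346 counts in wild type 1 and 2 and none in wild type 3 and 4. In mutants it had a single count, in cxcr4a mutant 4. Its wild-type to mutant ratio of counts, scaled by the same library sizes as CPM, was 592 (95% exact counting interval 106 to 23404). It rested on those 2 wild-type libraries. The beta chain gene mhc2dgb was counted mainly in those 2 wild-type libraries too, with 161 and 269 counts in wild type 1 and 2, 6 and 4 in wild type 3 and 4, and 2, 0, 0 and 0 in mutants 1 to 4 (ratio 206, interval 56.8 to 1709). The pair thus mainly divided wild type 1 and 2 from all other libraries. For mhc2dga the genotypes overlapped, as wild type 3 and 4 had no count. For mhc2dgb wild type 3 and 4, at 6 and 4 counts, lay only just above the mutants. Without wild type 1 no member would be placed here, nor would this pair without wild type 2. Other genes divided wild type 1 and 2 from 3 and 4 too. Erythrocyte and thrombocyte markers summed to 866 and 674 CPM against 7843 and 12385 CPM. Mural and fibroblast markers summed to 1041 and 611 CPM against 4483 and 5614 CPM. Leukocyte markers, at 1270 and 691 CPM against 1815 and 1183 CPM, overlapped. Any link to the gene pair was not tested. Without the low-count filter, edgeR gave adjusted p = 0.170 for mhc2dga and 0.116 for mhc2dgb, and DESeq2 gave 0.0804 and 0.000327.

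A row with the opposite pattern, mhc2bl, fell just outside that limit and was chosen after its values were seen. It had 43, 4, 87 and 184 counts in mutants 1 to 4, and in wild type 4 counts in library 2 and none in the other 3. The mutants were counted in 4 of 4 libraries but one of them no more than wild type 2. Without the low-count filter its edgeR adjusted p was 0.158, and DESeq2 gave 0.000641. Weak counts were also seen on mhc2dbb, with 7, 0, 4 and 5 counts in mutants, and mhc2dbap, with 9 and 12 counts in mutants 3 and 4, both at 0 in every wild-type library. The other class II rows with counts, mhc2d8.35b2, mhc2d8.37a1, mhc2d8.46a, mhc2dca and mhc2dcb, had at most 14 counts in either genotype, and 3 class II rows had none.

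Neither invariant chain gene nor ciita differed between genotypes beyond the spread of libraries. cd74a stood at 648, 401, 1462 and 2273 CPM in mutants 1 to 4 and at 1060.2, 594, 1644 and 1395 CPM in wild type. cd74b stood at 317, 205, 589.6 and 961 CPM in mutants and at 550.4, 294, 762 and 537 CPM in wild type. In both genes cxcr4a mutant 2 was lowest and cxcr4a mutant 4 highest of all 8 libraries, and the log2 fold changes were 0.03 ± 0.53 and -0.05 ± 0.47 (edgeR adjusted p = 0.990 and 0.984). ciita was at 9.21, 7.12, 9.59 and 25.2 CPM in mutants and at 30.5, 3.799, 20.1 and 7.10 CPM in wild type (edgeR adjusted p = 0.931).

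The level of several class II pathway genes followed that of the leukocyte markers from library to library. The bulk values cannot tell fewer cells of a type from less RNA per cell. A few highly counted genes weigh heavily in the marker sum, such as lcp1 at 31.8 to 642 CPM and marco at 19.7 to 522 CPM. In cxcr4a mutant 1 mpeg1.2 was at 332 CPM, against 18.2 to 51.1 CPM in the other libraries. Over the 8 libraries, log2 CPM of mhc2daa and the log2 summed leukocyte markers had Pearson r = 0.890 (exact permutation p = 0.00126, adjusted 0.00846 over the 15 genes compared) and Spearman rho = 0.905 (exact permutation p = 0.00456, adjusted 0.0685). Without cxcr4a mutant 2 and 4, the libraries farthest from the median of the markers, r was 0.750. For cd74b r was 0.867 and 0.820 without those 2 libraries (exact permutation p = 0.000843, adjusted 0.00846), and rho was 0.857 (exact permutation p = 0.0107, adjusted 0.0769). For cd74a r was 0.842 and rho 0.833, and for mhc2d4b 0.940 and 0.810 (exact permutation p for r = 0.00181 and 0.00226, adjusted 0.00846), with r of 0.720 and 0.679 without those 2 libraries. All 4 passed the adjustment for r and none for rho, and no p was computed for the reduced sets. For ciita r was 0.568 (exact permutation p = 0.133). For mhc2dab and mhc2dhb, whose ratios separated the genotypes, the values pooled over both genotypes were r = 0.490 and 0.564 (exact permutation p = 0.221 and 0.116) and do not show whether each gene followed the markers within a genotype, where 4 libraries are too few for a correlation. In each genotype mhc2dab was highest in the library with the most leukocyte markers, cxcr4a mutant 4 and wild type 3, and lowest in the one with the fewest, cxcr4a mutant 2 and wild type 2. In mutants mhc2dhb was likewise lowest in cxcr4a mutant 2, but highest in cxcr4a mutant 1. In wild type it was highest in library 1 and lowest in library 4. Whether the 2 genes differed in how they followed the markers was not tested. The share of class II counts that came from leukocytes in the sort was not tested.

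**Figure D3:**
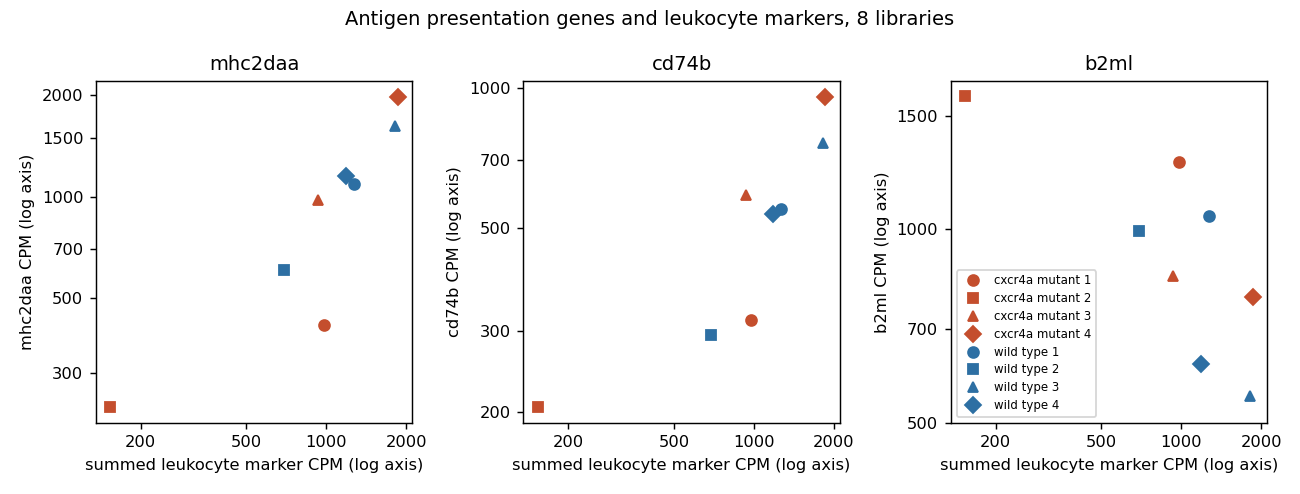
CPM of mhc2daa, cd74b and b2ml against the summed CPM of the leukocyte markers, both on log axes, with 1 point per library. mhc2daa and cd74b rise from cxcr4a mutant 2 at the lower left to cxcr4a mutant 4 at the upper right, while b2ml is highest in cxcr4a mutant 2.

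edgeR called no class I heavy chain gene among the 13 tested, and the heavy chain genes of the Z lineage, a fish lineage of class I, had log2 fold changes in both directions. Of 7 tested Z genes, 4 had positive and 3 negative log2 fold changes. mhc1zja was at 1.2, 1.77, 5.40 and 2.46 CPM in mutants 1 to 4 and at 10.8, 5.59, 14.9 and 10.9 CPM in wild type 1 to 4. The groups did not overlap, although cxcr4a mutant 3 and wild type 2 were nearly level. Its change of -1.96 ± 0.55 did not pass in edgeR (adjusted p = 0.198), while DESeq2 called it (adjusted p = 0.0127). In the opposite direction, mhc1zfa was at 23.2, 47.6, 17.6 and 16.98 CPM in mutants and at 15.1, 13.3, 3.92 and 3.74 CPM in wild type. The groups again did not overlap, wild type 1 and 2 were close to mutants 3 and 4, and the change of 1.55 ± 0.56 did not pass (edgeR adjusted p = 0.350).

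mhc1zba, for which most reads of the Z rows were counted, was at 1289, 1709.6, 894 and 1055 CPM in mutants and at 1242, 997, 627 and 753 CPM in wild type, and overlapped (edgeR adjusted p = 0.652). Counts of mhc1zea were 4.66% to 8.47% of those of mhc1zba in mutants and 10.01% to 14.1% in wild type, a log2 difference of -0.86. Counts of mhc1zfa were 1.61% to 2.79% of mhc1zba in mutants and 0.496% to 1.33% in wild type, a log2 difference of 1.24. Neither ratio overlapped between genotypes, and the exact permutation test gave 0.0286 for each, its smallest possible p, and 0.137 adjusted over the 24 ratios. The ratios of mhc1zja and mhc1zka to mhc1zba did overlap (exact permutation p = 0.0571 and 0.257). That of mhc1zja was 0.0931% to 0.604% in mutants and 0.561% to 2.39% in wild type. mhc1zea itself was at 78.9 ± 21.2 CPM in mutants against 103 ± 15.8 CPM in wild type (edgeR adjusted p = 0.633). The Z genes are close copies of each other, and 1 of them, mhc1zka, named here with its values known, overlaps 2 unnamed loci. Counts of single Z genes are therefore uncertain where reads could be placed on more than one.

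**Figure D4:**
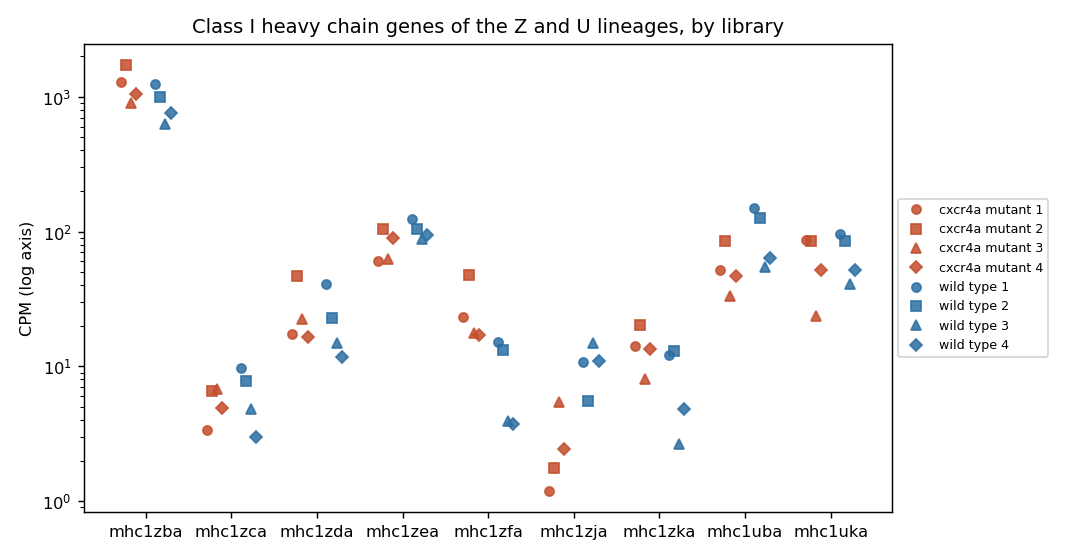
CPM (log axis) of the 7 Z lineage genes and the 2 counted U lineage genes, with 1 symbol per library. mhc1zfa is higher in all 4 mutants than in any wild-type library and mhc1zja lower, and the other 7 genes overlap.

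The U lineage holds the classical class I genes of zebrafish. Its genes mhc1uba and mhc1uka lie beside the proteasome genes on chromosome 19. mhc1uba was at 51.7, 85.1, 33.0 and 47.2 CPM in mutants and at 150.0, 125, 55.0 and 63.2 CPM in wild type. Wild type 1 and 2 stood above all other libraries, and the change of -0.86 ± 0.40 did not pass (edgeR adjusted p = 0.474). mhc1uka was at 87.2, 85.7, 23.8 and 51.8 CPM in mutants and at 96.5, 85.8, 40.6 and 51.5 CPM in wild type, lowest in cxcr4a mutant 3 (edgeR adjusted p = 0.948). The other U genes, mhc1ula and mhc1uma, lie on chromosome 22 and had no counts.

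In the L lineage, 3 of 10 genes were tested, 2 had no count, and mhc1lea, mhc1lfa, mhc1lga and mhc1lja had at most 5 counts in all. mhc1lca was at 12.4 ± 1.91 CPM in mutants against 15.8 ± 1.32 CPM in wild type (edgeR adjusted p = 0.688), and mhc1laa at 14.4 ± 5.15 and 14.5 ± 7.70 CPM (adjusted p = 0.996). mhc1lia was counted at 0 to 2.08 CPM in mutants against 0.480 to 1.46 CPM in wild type. mhc1lda, not tested, had 9 and 61 counts in mutants 3 and 4 and 29 and 4 in wild type 1 and 2, and none in the other 4 libraries, so its presence crossed the genotypes. mhc1haa, a further heavy chain gene, was at 1.48 to 5.87 CPM in mutants against 0 to 4.26 CPM in wild type (edgeR adjusted p = 0.861).

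Both beta-2-microglobulin genes, which encode the light chain of class I, were counted in every library. b2m was at 808, 842, 379.8 and 469.8 CPM in mutants 1 to 4 and at 595, 522, 326 and 399 CPM in wild type. b2ml was at 1271, 1609.8, 845 and 784 CPM in mutants and at 1047, 994, 549.5 and 617 CPM in wild type. Mutants 1 and 2 stood above every wild-type library in both genes while mutants 3 and 4 lay within the wild-type range. The log2 fold changes were 0.44 ± 0.32 and 0.49 ± 0.32 (edgeR adjusted p = 0.688 and 0.652), and without mutants 1 and 2 they were -0.12 and 0.02. b2ml was lower in libraries with more leukocyte markers, with r = -0.767 (exact permutation p = 0.0149, adjusted 0.0448) and -0.626 without cxcr4a mutant 2 and 4, and rho = -0.643 (exact permutation p = 0.0962, adjusted 0.206).

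The constitutive beta subunit genes of the standard proteasome overlapped between genotypes in all but 1 row. Summed, they reached 566 to 749 CPM in mutants against 501 to 1059.7 CPM in wild type. No row of the 8 was called. The plain row psmb5 stood apart with 152, 83, 114 and 136 counts in mutants against 31, 27, 0 and 4 in wild type, while its copy psmb5_1 had 871 to 1725 counts in mutants against 980 to 2483 in wild type. On the copy the groups overlapped (log2 fold change -0.42 ± 0.28, edgeR adjusted p = 0.656), and on the plain row they did not (2.85 ± 1.1, adjusted p = 0.382). With both rows summed, psmb5 was at -0.28 ± 0.27 (edgeR adjusted p = 0.825), opposite in sign to the plain row. Counts of the plain row were 7.88% to 14.5% of those of the copy in mutants and 0% to 3.16% in wild type, which did not overlap (exact permutation p = 0.0286, 0.137 adjusted over the 24 ratios). psmb7, a catalytic subunit gene, was at 101 ± 21.6 CPM in mutants against 124 ± 58.4 CPM in wild type, and psmb4 and psmb1 likewise overlapped (edgeR adjusted p = 0.826, 0.877 and 0.934).

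The inducible or MHC-linked beta subunit genes were lower in mutants by median, though no row was called. All 5 tested rows had a negative log2 fold change, from -1.37 to -0.21 with a median of -1.14, where over all rows tested 49.8% were positive. Their summed level was 199.7, 133, 53.7 and 109.7 CPM in mutants 1 to 4 and 207, 222, 189 and 252 CPM in wild type 1 to 4. Thus 3 of 4 mutants lay below every wild-type library and cxcr4a mutant 1 lay within them. Of the 5, psmb13a, psmb8a, psmb12 and psmb9a overlap others of the run in the RefSeq annotation of GRCz12tu, and psmb13a overlaps tap2a. The library chemistry does not mark strand, so these may not be independent counts. Overlap in the GRCz11 annotation used for counting was not checked. The remaining rows were placed in this group by symbol alone, as psmb genes other than psmb1 to psmb7. Of these, psmb11b, on chromosome 23, had 2 mutant and 1 wild-type count, and both copies of psmb11a, on chromosome 2, had none.

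psmb9a, an inducible catalytic subunit gene, was at 19.1, 7.47, 2.13 and 10.5 CPM in mutants and at 34.1, 24.6, 19.3 and 23.6 CPM in wild type. Mutants lay below every wild-type library in 4 of 4, with mutant 1 only just so, and the change of -1.37 ± 0.55 did not pass (edgeR adjusted p = 0.396). psmb8a, the second inducible catalytic gene of the region, was at 54.6, 19.5, 4.14 and 20.3 CPM in mutants and at 52.0, 67.1, 47.5 and 50.1 CPM in wild type. Here mutant 1 was level with wild type and the other 3 mutants were lower (edgeR adjusted p = 0.537). psmb12 was at 37.3, 16.5, 4.31 and 19.7 CPM in mutants and at 35.8, 45.1, 45.6 and 66.0 CPM in wild type (edgeR adjusted p = 0.405). psmb13a was at 25.4, 10.03, 0.915 and 9.29 CPM in mutants and at 22.5, 25.0, 19.4 and 21.2 CPM in wild type (edgeR adjusted p = 0.694). psmb10, the inducible subunit gene that lies on chromosome 4, was at 63.3, 79.2, 42.1 and 49.9 CPM in mutants and at 62.2, 59.8, 56.9 and 91.4 CPM in wild type (edgeR adjusted p = 0.841). Mutants 3 and 4 were below every wild type here too, by a smaller factor, and mutant 2 was not.

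Within the mutants, cxcr4a mutant 3 stood far below the other 3 from psmb13a to tap2a, which are neighbours. In GRCz12tu order, the protein-coding genes of this stretch of chromosome 19 are tapbp.1, mhc1uka, tapbp.2, mhc1uba, psmb13a, psmb8a, psmb12, psmb9a and tap2a. In mutant 3 the last 5 were 5.69-fold to 16.3-fold below the mean of the other 3 mutants, and mhc1uka and mhc1uba were 3.15-fold and 1.86-fold below. tap2a, which encodes a subunit of the peptide transporter, was at 31.7, 23.8, 2.48 and 15.2 CPM in mutants 1 to 4 and at 48.5, 25.7, 13.5 and 16.8 CPM in wild type. Mutant 3 was the lowest of 8 libraries for all 5, against 6.59% of tested rows that were lowest in that library. It was also the lowest for the members psmb10, tap1 and psmb4, of which psmb10 and tap1 lie on chromosomes 4 and 16. cxcr4a mutant 1 lay above the other mutants, at 2.30 to 3.77 times their mean for the same 5 genes, a mean that holds the low mutant 3. Mutant 1 was within or close to the wild-type range for all 5. In mutant 3, ratios as low as those of the 5 genes were seen in 1.82% to 3.28% of tested rows. The library and the 5 genes were chosen after these values were seen. Each of the 5 also overlaps another of them in the RefSeq annotation, so these shares are no test of the stretch.

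On the far side of tap2a, the next tested genes brd2a, hsd17b8 and rxrba, which are no members, stood in mutant 3 at 1.19, 1.03 and 0.998 of the mean of the other mutants. On the near side, tapbp.1 and tapbp.2 stood at 0.734 and 0.694 of it. Within this stretch, the lowest values thus ran from psmb13a to tap2a, with smaller gaps at the U genes. Farther out, zbtb22b, flot1a and znf384a were also lowest in mutant 3, at 0.350, 0.439 and 0.690 of the mean of the other mutants. Low values in mutant 3 were not confined to this stretch. Among the other antigen presentation and interferon genes listed below, some were lowest of the 8 libraries there. These included isg15 at 15.9, mxa at 2.79, rsad2 at 1.09, socs1a at 7.76, psme2 at 62.0 and erap2 at 42.8 CPM. Others of that list, such as stat1a, irf7, irf9 and tapbpl, were not. These genes were picked with their values known, and a shared part was not tested. Summed leukocyte markers in cxcr4a mutant 3 were 931 CPM, within the range of the other mutants. Its summed cardiomyocyte markers, at 2149 CPM, were the highest of the 8 libraries. Over the 8 libraries, psmb8a and psmb9a had r = 0.173 and 0.282 with the leukocyte markers (exact permutation p = 0.633 and 0.449). A part of cell content in the low values of mutant 3 was not tested. Without mutant 3 the log2 fold changes were -0.78 for psmb8a, -1.03 for psmb9a, -0.96 for psmb12, -0.56 for psmb13a and -0.13 for tap2a. Without mutant 1 they were -1.88, -1.92, -1.83, -1.71 and -0.92 in the same order, and without mutants 1 and 2 they lay between -2.15 and -1.56. edgeR called none of these.

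**Figure D5:**
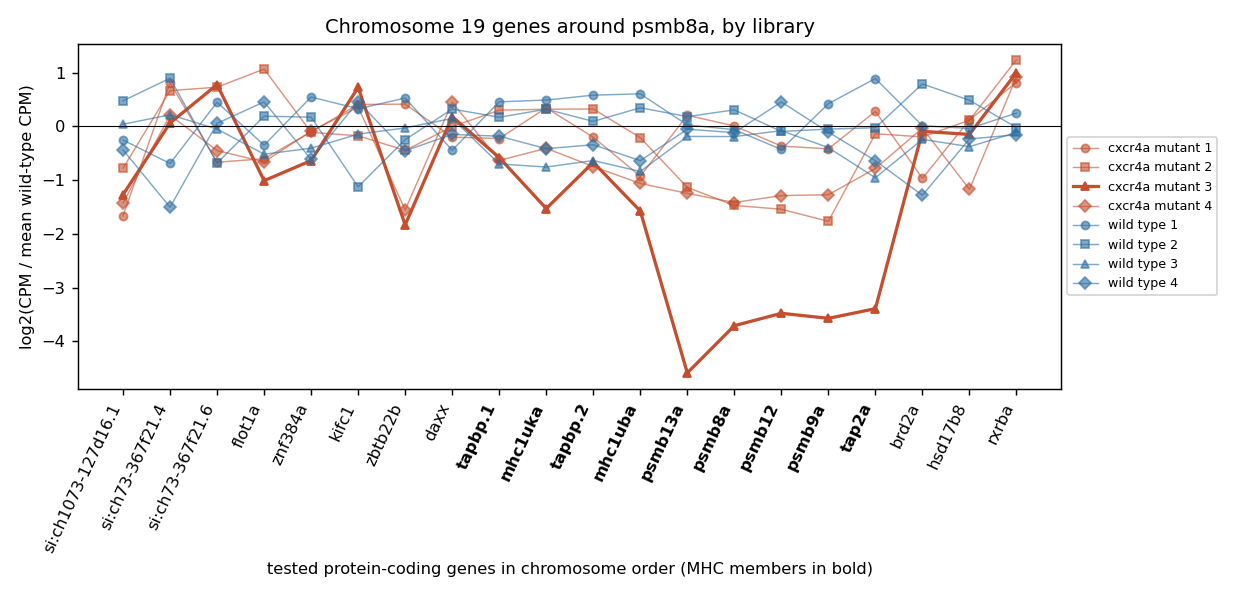
Log2 of CPM over the mean wild-type CPM (y axis) for tested protein-coding genes in their order on chromosome 19, with 1 line per library and members in bold. cxcr4a mutant 3 (thick line) drops from psmb13a to tap2a and is back among the other libraries at brd2a, and mutants 2 and 4 lie below wild type from psmb13a to psmb9a.

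The other transport and loading genes were close between genotypes. tap1, whose product pairs with that of tap2, was at 46.8, 26.6, 17.4 and 24.9 CPM in mutants and at 26.9, 24.5, 23.3 and 26.0 CPM in wild type, where the libraries were much closer to each other (edgeR adjusted p = 0.874). tap2t, a further transporter gene, was at 19.2 ± 4.75 CPM in mutants against 15.7 ± 4.69 CPM in wild type (edgeR adjusted p = 0.809), and its copy had no count. The tapasin genes tapbp.1 and tapbp.2 were at 64.7 ± 20.7 and 48.8 ± 17.7 CPM in mutants and at 76.0 ± 24.7 and 58.3 ± 21.9 CPM in wild type (edgeR adjusted p = 0.850 and 0.848).

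Other genes of antigen presentation and its interferon control gave no called gene. Of 63 tested rows of that list, none was called by edgeR over all rows as deposited, and 4 higher and 3 lower had an unadjusted p under 0.05, against 5.93% and 4.91% of all rows. DESeq2, which called 4.26% of all rows, called 1, socs1b, a suppressor of cytokine signalling. The plain row of socs1b was at 8.11, 16.4, 2.44 and 5.79 CPM in mutants and at 1.97, 0.524, 0 and 0.527 CPM in wild type. On that row every mutant lay above every wild type (log2 fold change 3.45 ± 1.14, edgeR adjusted p = 0.298). With copies of the symbol summed the groups overlapped, as cxcr4a mutant 3 at 2.56 CPM lay just below wild type 1 at 2.58 CPM. The change of socs1b was then 3.00 ± 0.80 (edgeR adjusted p = 0.287). Its relatives socs3a and socs3b had changes of 1.2 ± 0.50 and 0.95 ± 0.34 (edgeR adjusted p = 0.424 and 0.347). ctsd, which encodes the lysosomal protease cathepsin D, was at 15.4 ± 4.54 CPM in mutants against 28.5 ± 5.54 CPM in wild type (edgeR adjusted p = 0.278). nfyba, a subunit gene of the factor that binds the Y box of MHC promoters, was at 16.0 ± 1.25 and 27.8 ± 8.10 CPM (edgeR adjusted p = 0.301), and pdia3, a partner of tapasin, at 594 ± 89.3 and 890 ± 268 CPM (adjusted p = 0.453).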

How the data were processed

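The files give, for 8 libraries, raw counts of reads by gene symbol, which the authors deposited without normalization. Adapter trimming used cutadapt 5.2, mapping STAR 2.7.11a and counting HTSeq, with GRCz11 as the build, as named in the submitters' processing notes; other settings were not given in the sources used here. Per the labels' protocols, cDNA came from the SMART-Seq v4 kit and libraries from Nextera XT, a combination that does not mark strand.

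The fit over all rows used R 4.3.3 and edgeR 4.0.16 (filterByExpr, TMM, quasi-likelihood F-test, 2-sided, Benjamini-Hochberg), genotype as the only term, with rows as deposited and with copies of a symbol summed. Standard errors came from the F statistic, and CPM use TMM-scaled library sizes. Counting intervals are exact binomial at 95% and cover counting error only. Ratios of counts got 0.5 added where a library was at 0. Ratios and correlations with the leukocyte markers, log2 scale, were tested by exact permutation over 70 assignments or 40320 pairings.

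The fit was tested on simulated counts of 18002 rows for cxcr4a mutant against wild type. It called 0.995% of 2-fold, 20.4% of 4-fold and 47.5% of 8-fold changes, with 10 of 147 calls false, so a missed call does not show equal levels. Every pair of libraries within a genotype differed by more than sampling noise.

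Genes are named where they were called, counted in 1 genotype only, among the 3 smallest p or 3 highest mean levels of their role, or a core pathway gene. Of the other list, up to 6 with the smallest p are named. Members and lists were chosen with earlier results of these data known. Chromosomes and neighbours come from RefSeq on GRCz12tu, which lists 58 of the 63 symbols. The symbols not listed there are mhc1zja, mhc2bl, mhc2dab, mhc2d8.37a1 and mhc2d8.37b2. Since the counts used another build, coordinates are left out. Alternatives were DESeq2 1.42.0, limma 3.58.1 voom, other scalings and filters, a replicate block, no mitochondrial genes, and left-out libraries.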

Additional observations from a re-analysis of the deposited data

Results flagged for a closer look

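In 96 checks of groups of 4 libraries, 6 had 1 library far from the other 3, and chance gives about 1 in 20. ciita was at 25.2 CPM in cxcr4a mutant 4 and at 7.12 to 9.59 CPM in the other mutants. psmb5, plain row, was at 7.29 CPM in cxcr4a mutant 1 and at 4.71 to 4.97 CPM in the others. Wild type 4 stood above the other wild types for psmb4, at 175 CPM against 81.3 to 92.2 CPM, and for psmb10, at 91.4 CPM against 56.9 to 62.2 CPM. The values of mhc2dga in cxcr4a mutant 4, 0.0346 CPM, and of mhc2dgb in cxcr4a mutant 1, 0.0960 CPM, rest on 1 and 2 counts beside libraries at 0.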

How the results depend on the processing

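With rows as deposited as the base, mhc2dhb was called lower in 17 of 18 alternatives. With copies summed it was lost in more of them, given next. The replicate number as a block gave 0 called members with rows as deposited and 0 with copies summed (mhc2dhb -4.57, edgeR adjusted p = 0.0876). Same-numbered libraries had deviations correlated at 0.0741, 0.0675, 0.0672 and -0.0752, and not every library correlated best with its own number, so the numbers were not taken as pairs. DESeq2 called 4 members in either form, mhc1zja among them at -1.95 (adjusted p = 0.0127), and 1 gene of the other list. With copies summed, 0 members were called by limma voom and 0 without mutants 1 and 2. Leaving out 1 library gave 1 call with rows as deposited, 0 to 1 with copies summed (mhc2dhb called in 1 of 8) and 0 in the other list. Members counted in 1 genotype only, 2 as reported, were 0 with no count allowed in the silent genotype, 0 with 10 counts asked of all 4 other libraries, and 0 to 2 without 1 library, where mhc2bl was the 1 left without wild type 2. Without mutants 1 and 2 the log2 ratio of summed CPM went from 0.47 to -0.027 for beta-2-microglobulin and from -0.81 to -1.41 for the inducible proteasome genes.

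Sign changes were confined, among the alternatives run, to log2 fold changes that no fit called. Without mutants 1 and 2 these were b2m at -0.12, cd74b at 0.53, ciita at 0.18, mhc1laa at 0.28, mhc1zda at -0.22, mhc2d4b at 0.51, mhc2daa at 0.40, tap1 at -0.25 and tap2t at -0.048. Under limma voom they were cd74a at -0.19, ciita at 0.037, mhc1laa at 0.085 and mhc1lia at -0.50, and under the block cd74a at -0.19, mhc1laa at 0.086 and mhc1lia at -0.34. cd74a was at -0.0074 without mitochondrial genes, and psmb5 at -0.28 with copies summed. Leaving out 1 library gave -0.49 to 0.32 for cd74a, -0.53 to 0.22 for cd74b, -0.82 to 0.31 for ciita, -0.29 to 0.26 for mhc1laa, -0.24 to 0.69 for mhc1lia, -0.35 to 0.14 for mhc1uka and -0.27 to 0.65 for mhc1zda. It gave -0.71 to 0.19 for mhc2d4b, -1.04 to 0.012 for mhc2daa, -0.26 to 0.18 for psmb1, -0.30 to 0.15 for psmb4, -0.48 to 0.054 for psmb7, -0.13 to 0.39 for tap1 and -0.52 to 0.0037 for tapbp.2. Except where the number of libraries or rows itself changed, the cause was not tested. With 4 libraries a group and the spread seen here, most simulated 4-fold changes were missed, which limits every uncalled result.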
